A study of Homo sapiens with 4 samples.

Results

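The genes described here encode axon guidance cues and their receptors, as measured in UM-UC-3 cells, a long-established line from a human bladder cancer. They are the 53 genes whose platform symbol names a semaphorin (20 genes), a plexin (9), a slit or a ROBO receptor (7), a netrin, an UNC5 receptor or DCC (9), or an ephrin (8). They were chosen by symbol alone, out of 19775 genes that the platform annotation gives to probe sets naming 1 gene. On the array they have 121 such probe sets, and each gene is represented by the probe set with the highest mean over the 4 arrays; 1 further probe set, which names SEMA3B together with another gene, was left out.

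Each of the 4 arrays holds RNA from UM-UC-3 cells in log phase growth, 2 arrays per group. The control cells were stably transfected with GFP, the empty vector. The cells to be compared with them were, by their title, source and genotype labels, stably transfected with RhoGDI2 tagged with GFP; their free-text description instead recounts the control transfection. Both lines therefore carry a GFP transgene and were sorted for its fluorescence, and for the control a cotransfection with pBABE PURO for selection is stated; the promoter driving either transgene was not given in the sources used here. RhoGDI2 is the product of ARHGDIB; the series, which calls it a metastasis suppressor, set out to find the genes it regulates. Replicates A and B were made at separate times, and each A or B pair at the same time. Whether a line is 1 clone, and whether the replicates come from separate transfections, was not given, so that differences in how the lines were made cannot be told apart from an effect of the introduced gene.

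Axon guidance molecules steer growing axons by attraction or repulsion, and outside the nervous system they act on cell migration, vessel growth and cell sorting. Secreted or membrane-bound semaphorins bind plexins, with neuropilins as co-receptors for the secreted class. Slits bind ROBO receptors, netrins bind DCC and UNC5 receptors, and the membrane-bound ephrins bind Eph receptor tyrosine kinases on neighbouring cells. These receptors act on the actin and microtubule skeleton largely through small GTPases.

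Of the 5 genes that changed, promoters of the 4 that rose were in the RefSeq table used here and are shown because the groups differed in the same direction for these genes. Each is written 5′ to 3′ from 250 bases before to 50 after the annotated start, in GRCh38.p14 coordinates, with GGGCGG or its complement CCGCCC, the GC box, in capitals.

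EFNA5, chr5:107670888-107671187, strand -: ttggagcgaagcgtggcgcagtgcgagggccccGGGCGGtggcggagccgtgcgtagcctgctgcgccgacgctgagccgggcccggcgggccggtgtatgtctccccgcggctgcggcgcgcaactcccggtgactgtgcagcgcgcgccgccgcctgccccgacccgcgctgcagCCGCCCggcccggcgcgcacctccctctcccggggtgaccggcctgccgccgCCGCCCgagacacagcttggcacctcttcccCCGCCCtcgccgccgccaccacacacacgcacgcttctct
EFNB2, chr13:106535613-106535912, strand -: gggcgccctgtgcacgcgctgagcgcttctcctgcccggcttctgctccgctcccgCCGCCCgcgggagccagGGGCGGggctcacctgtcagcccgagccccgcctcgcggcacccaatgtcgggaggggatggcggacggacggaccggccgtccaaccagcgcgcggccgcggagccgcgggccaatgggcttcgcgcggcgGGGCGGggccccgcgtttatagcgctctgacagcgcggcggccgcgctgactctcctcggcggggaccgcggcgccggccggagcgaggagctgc
ROBO2, chr3:77039849-77040148, strand +: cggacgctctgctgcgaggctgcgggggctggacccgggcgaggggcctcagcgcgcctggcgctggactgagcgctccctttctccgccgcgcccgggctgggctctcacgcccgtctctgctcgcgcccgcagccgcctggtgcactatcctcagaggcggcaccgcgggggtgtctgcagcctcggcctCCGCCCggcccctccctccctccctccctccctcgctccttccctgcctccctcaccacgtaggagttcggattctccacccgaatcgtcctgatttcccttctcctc
PLXNB2, chr22:50301620-50301919, strand -: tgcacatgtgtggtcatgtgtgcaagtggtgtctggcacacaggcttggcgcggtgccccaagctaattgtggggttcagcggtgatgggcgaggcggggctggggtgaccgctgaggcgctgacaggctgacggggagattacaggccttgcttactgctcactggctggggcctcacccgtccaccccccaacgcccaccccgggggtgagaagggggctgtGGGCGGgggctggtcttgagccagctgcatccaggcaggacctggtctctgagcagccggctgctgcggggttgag

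The GC box occurred 4 times in the EFNA5 window, 3 times in that of EFNB2 and 1 time each in those of ROBO2 and PLXNB2. It lay in 33 of the 45 member promoters found in the table and in 45.0% of all 35116 promoters of the same length. EFNB2 also held, 30 bases before the start, TTTATA, which is TATAAA on the opposite strand, 2 matches to CCAAT and, on the opposite strand, 1 to CAGGTG; on either strand these occurred in 11.5%, 34.6% and 20.6% of all promoters. TGANTCA and CACGTG had no match in these 4 windows, against 7.71% and 7.26% of all promoters. GC content was 78.0% for EFNA5, 78.7% for EFNB2, 72.3% for ROBO2 and 66.7% for PLXNB2, beside medians of 66.7% over the members and 58.7% over all promoters. A match to these letters is a description of the window and not a binding site.

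Values below are log2 RMA expression, so a difference of 1 is a doubling; every difference is GFP-RhoGDI2 minus GFP. Tested were the probe sets with a mean of at least 4.64, which is the median over all probe sets, and a probe set was called at an adjusted p under 0.05 in the limma fit with preparation as a block. Of the 53 genes, 36 were tested, and 5 of them (13.9%) changed in the GFP-RhoGDI2 line. The ephrin genes EFNA5 and EFNB2, the slit receptor gene ROBO2 and the plexin gene PLXNB2 rose, and the semaphorin gene SEMA3A fell. Among all 12123 tested genes 8.17% were called, 4.83% higher and 3.35% lower. Without the block, 3 members were called, EFNA5, EFNB2 and ROBO2, when 5.29% of all genes were.

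At an unadjusted p under 0.05 there were 14 members (38.9%), against 27.1% of all tested genes. The arrays of the groups did not overlap for 10 tested members that were higher (27.8%) and 6 that were lower (16.7%), beside 25.6% and 29.0% of all tested genes. The median difference of the tested members was 0.07 and that of all tested genes -0.01. For the 31 tested members not called, differences ran from -0.56 to 0.44, and their 95% intervals reached at most from -0.89 to 0.71.

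**Figure D1:**
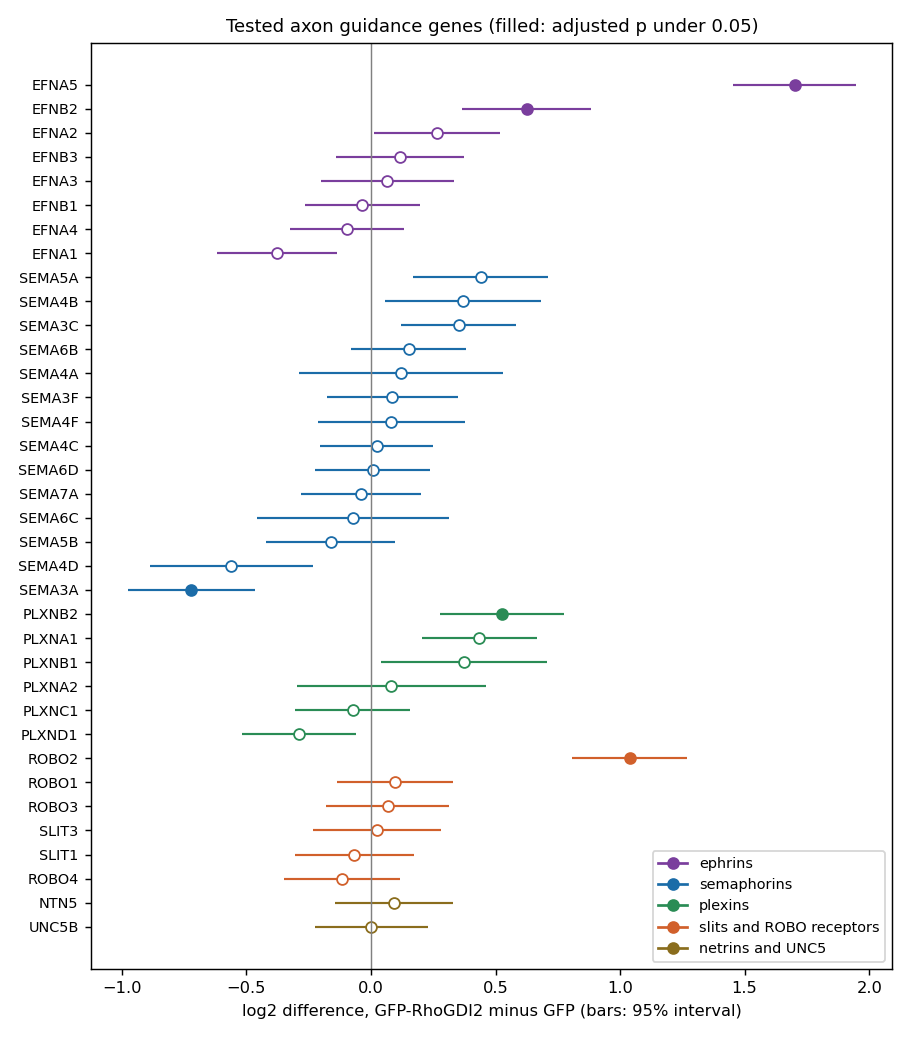
Log2 difference, GFP-RhoGDI2 minus GFP, with its 95% interval from the limma fit, for the 36 tested axon guidance genes, coloured by family. Filled points are the 5 genes called at an adjusted p under 0.05; EFNA5 at 1.70 and ROBO2 at 1.04 lie to the right of the rest and SEMA3A at -0.72 is the lowest.

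All 8 ephrin genes were tested, 2 of them rose and none fell. Beside this family and those below, 4.83% of all tested genes were called higher and 3.35% lower. Ephrin-A ligands are held to the membrane by a lipid anchor and bind mainly EphA receptors; EFNA5 encodes ephrin-A5. For EFNA5 (probe set 233814_at), GFP arrays A and B gave 7.31 and 7.58, and the GFP-RhoGDI2 pair gave 9.10 and 9.19. Both GFP-RhoGDI2 arrays were above both GFP arrays, and the rise was 1.79 in preparation A and 1.61 in preparation B. The difference was 1.70 (SE 0.099, adjusted p = 0.00112), 3.25-fold with a 95% interval of 2.74 to 3.86. It was the largest difference among the tested members, and in each of the 4 fits that leave out 1 array EFNA5 was still called. Of its 3 other probe sets, those above the filter rose by 1.2 and 1.10 (adjusted p = 0.00788 and 0.00363). The last, 207301_at, lay between 3.52 and 3.87 on all arrays, under the filter level, and was not tested; its difference was -0.24, with both GFP-RhoGDI2 arrays below both GFP arrays.

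EFNB2 encodes ephrin-B2, a transmembrane ligand of EphB receptors and EphA4 that marks arterial endothelium in development. Its probe set 202668_at gave 9.94 and 9.68 in GFP cells, A and B, and 10.45 and 10.42 in GFP-RhoGDI2 cells. The groups did not overlap, with rises of 0.51 and 0.74 in preparations A and B. The difference of 0.62 (SE 0.104, adjusted p = 0.0271) is 1.54-fold. The other EFNB2 probe set differed by 0.32 and was not called (adjusted p = 0.187). The EFNB2 call was kept without the GFP A array, and lost without GFP B (0.49, adjusted p = 0.116), GFP-RhoGDI2 A (0.61, adjusted p = 0.153) or GFP-RhoGDI2 B (0.64, adjusted p = 0.149), in fits that have 3 arrays and no block.

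The other ephrins did not pass. EFNA1, encoding ephrin-A1, a ligand of EphA2, was lower on both GFP-RhoGDI2 arrays, at 5.59 and 5.36 against 5.89 and 5.81, a difference of -0.38 (adjusted p = 0.076). EFNA2 differed by 0.27 (adjusted p = 0.172); it is the tested member whose GFP mean, 4.58, lay under the filter level, so its test rested on the higher group. EFNA3, EFNA4, EFNB1 and EFNB3 differed by -0.10 to 0.12. EFNA4, EFNA3 and EFNA1 are consecutive protein-coding genes on chromosome 1 in RefSeq order, and their differences were -0.10, 0.07 and -0.38.

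Of the Eph receptor genes, to which ephrins bind, 13 of the 14 listed were found, 6 were tested and 0 were called, with 0 at an unadjusted p under 0.05. Among all tested genes these shares were 8.17% and 27.1%, so 6 genes are too few for a reading of the family. EPHA2, which binds ephrin-A1 and ephrin-A5, read 9.07 and 9.03 in GFP and 8.86 and 9.04 in GFP-RhoGDI2 cells, a difference of -0.10 (95% interval -0.35 to 0.16). EPHB4, the main receptor of ephrin-B2 in vessels, differed by 0.13 (95% interval -0.13 to 0.38). Intervals over the 6 tested receptors reached from -0.47 to 0.41. EPHA4, which binds ligands of both classes, was below the filter at 4.39 and 4.33 in GFP and 4.72 and 4.67 in GFP-RhoGDI2 cells.

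**Figure D2:**
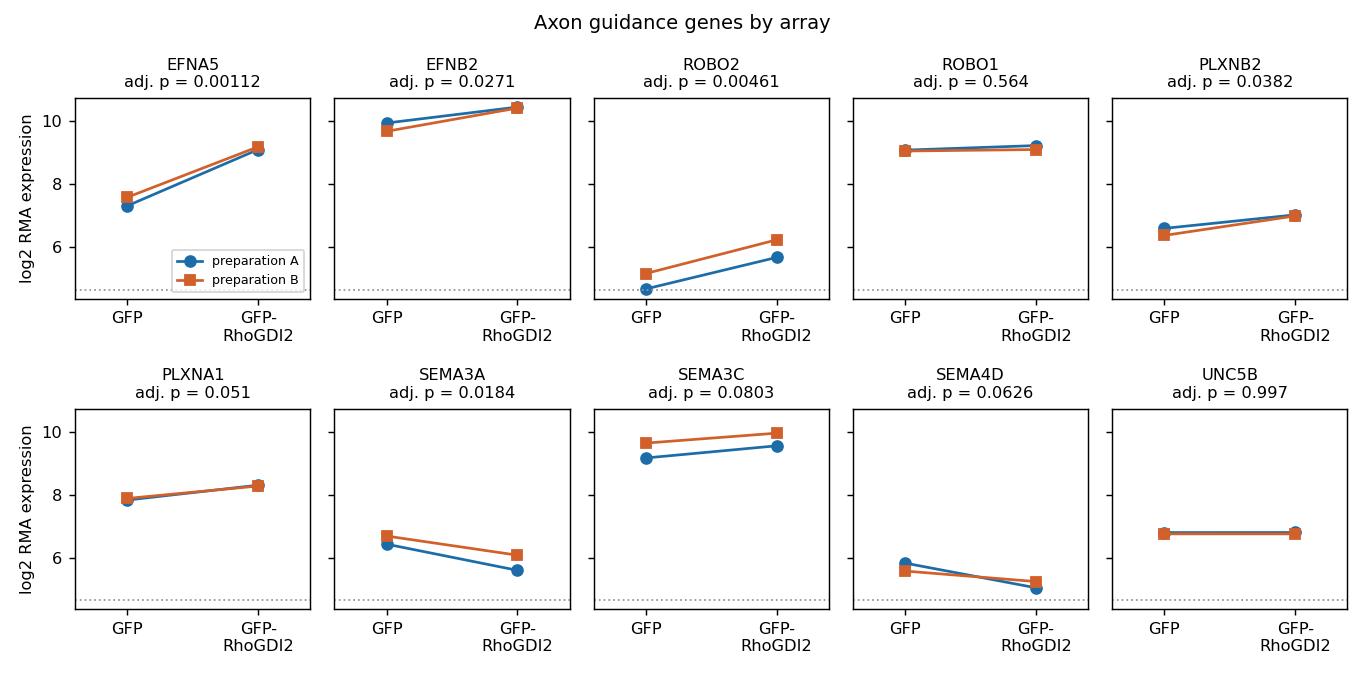
Log2 RMA expression of 10 axon guidance genes on each array, with lines joining the GFP and GFP-RhoGDI2 arrays of preparation A (circles) and B (squares); the dotted line is the filter level of 4.64. Heights differ between probe sets for technical reasons, so only the slope within a panel is read: EFNA5, EFNB2, ROBO2 and PLXNB2 go up in both preparations and SEMA3A goes down, while UNC5B is flat.

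Among slits and ROBO receptors, 6 of 7 genes were tested, ROBO2 rose and none fell. ROBO2 is a transmembrane receptor for slit ligands. Probe set 226766_at gave 4.66 and 5.15 in GFP cells, A and B, and 5.66 and 6.22 in GFP-RhoGDI2 cells. The GFP A value lay just above the filter level of 4.64 and, with no detection calls, is not shown to be above background. The groups did not overlap, and B was above A in each line, by 0.49 in GFP and 0.56 in GFP-RhoGDI2 cells. Within preparations the rise was 1.0 and 1.07, on average 1.04 (SE 0.0929, adjusted p = 0.00461) or 2.05-fold. On 3 arrays, with GFP A left out and no block, it was 0.79 (adjusted p = 0.118), and with GFP-RhoGDI2 B left out 0.76 (adjusted p = 0.183). Both other ROBO2 probe sets were below the filter, and they differed by 0.31 and -0.09.

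ROBO1, the neighbour of ROBO2 on chromosome 3 and another slit receptor gene, read 9.08 and 9.05 in GFP and 9.23 and 9.10 in GFP-RhoGDI2 cells, a difference of 0.10 (95% interval -0.14 to 0.33, adjusted p = 0.564). The intervals of the neighbouring genes ROBO2 and ROBO1 do not meet; the difference between them was not tested. ROBO3, which lowers slit sensitivity in crossing axons, and ROBO4, an endothelial receptor, differed by 0.07 and -0.12, while a second tested ROBO4 probe set differed by 0.25 (adjusted p = 0.164). The ligand genes SLIT1 and SLIT3 differed by -0.07 and 0.02, and SLIT2 was below the filter at 3.69 and 3.33 in GFP and 3.27 and 3.17 in GFP-RhoGDI2 cells.

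Of 9 plexin genes, 6 were tested, PLXNB2 rose and none fell. Plexin-B2 is a receptor of class 4 semaphorins that signals in part through R-Ras. PLXNB2 (208890_s_at) gave 6.59 and 6.36 in GFP cells, A and B, and 7.02 and 6.98 in GFP-RhoGDI2 cells. Both GFP-RhoGDI2 arrays were above both GFP arrays, with rises of 0.43 and 0.62. The difference was 0.53 (SE 0.1, adjusted p = 0.0382), 1.44-fold. The call was lost without the block (adjusted p = 0.0572) and with no filter on low values (adjusted p = 0.0681). It was also lost without any 1 of the arrays, in fits that have no block either (differences 0.41 to 0.64). The other PLXNB2 probe set was below the filter and differed by 0.11, so PLXNB2 could not be tested without _s_at and _x_at probe sets.

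PLXNA1, a co-receptor with neuropilin-1 for SEMA3A, read 7.83 and 7.88 in GFP and 8.30 and 8.28 in GFP-RhoGDI2 cells. The 4 values did not overlap, and the difference of 0.43 just missed the threshold (adjusted p = 0.051). A second tested PLXNA1 probe set read 7.04 and 6.94 against 6.98 and 6.99, a difference of -0.01, so the probe sets of this gene disagree. PLXNB1 probe sets also disagreed, at 0.37 (adjusted p = 0.153) and -0.25 (adjusted p = 0.171), each with groups that did not overlap. PLXND1, the receptor of SEMA3E, was lower at 6.40 and 6.50 against 6.71 and 6.77 (difference -0.29, adjusted p = 0.118), while PLXNA2 and PLXNC1 differed by 0.08 and -0.07. Below the filter, all 4 PLXNA4 probe sets were lower on both GFP-RhoGDI2 arrays, and the difference of the representative was -0.40.

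Of 20 semaphorin genes 14 were tested, SEMA3A fell and none rose by the representative probe set. SEMA3A is a secreted repellent that collapses growth cones through neuropilin-1 and class A plexins. Probe set 206805_at gave 6.42 and 6.68 in GFP cells, A and B, and 5.59 and 6.07 in GFP-RhoGDI2 cells. The groups did not overlap, and in each line B was above A, by 0.26 and 0.48. SEMA3A fell by 0.83 in preparation A and by 0.61 in preparation B. The mean difference was -0.72 (SE 0.103, adjusted p = 0.0184), which is 1.65-fold lower. The call was lost without the block (adjusted p = 0.0729). It was also lost without any 1 of the arrays, in fits that have no block either (differences -0.96 to -0.48). Its 2 other probe sets were below the filter and differed by -0.30 and -0.08.

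SEMA3C, a secreted semaphorin that attracts some axons and acts in outflow tract development, went the other way. Its representative read 9.17 and 9.64 in GFP and 9.56 and 9.96 in GFP-RhoGDI2 cells. The groups overlapped, because B was above A by 0.47 and 0.40. Within preparations SEMA3C was higher by 0.39 and 0.32, a difference of 0.35 that missed the threshold (adjusted p = 0.0803). Its second probe set was called, at 0.59 (adjusted p = 0.0427), with 6.65 and 7.27 in GFP and 7.41 and 7.68 in GFP-RhoGDI2 cells. In RefSeq order SEMA3C, SEMA3E, SEMA3A and SEMA3D lie close together on chromosome 7, and their differences were 0.35, -0.16, -0.72 and 0.22, with SEMA3E and SEMA3D below the filter.

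SEMA4D, a membrane semaphorin that binds plexin-B1, was lower at 5.04 and 5.23 against 5.82 and 5.57, a difference of -0.56 (SE 0.132, adjusted p = 0.0626). Its other probe set was below the filter and differed by 0.17. SEMA5A, a transmembrane semaphorin with thrombospondin repeats, was higher at 5.38 and 5.51 against 5.08 and 4.93, a difference of 0.44 (adjusted p = 0.0712). All 3 SEMA5A probe sets were higher on both GFP-RhoGDI2 arrays than on both GFP arrays, although the other 2 were below the filter. SEMA4B differed by 0.37 (adjusted p = 0.138). SEMA3F, SEMA4A, SEMA4C, SEMA4F, SEMA5B, SEMA6B, SEMA6C, SEMA6D and SEMA7A differed by -0.16 to 0.15, with adjusted p from 0.361 to 0.975.

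The neuropilins, co-receptors of the secreted semaphorins, were not called by their representatives. NRP1 read 5.24 and 4.93 in GFP and 5.51 and 6.02 in GFP-RhoGDI2 cells, a difference of 0.68 (SE 0.194, adjusted p = 0.096). A further NRP1 probe set, below the filter on its mean, read 3.71 and 3.69 against 4.95 and 5.55, a difference of 1.55. An intensity trend in the fit gave NRP1 a call (0.68, adjusted p = 0.00768), and it was called through that further probe set without _s_at and _x_at probe sets (1.55, adjusted p = 0.00383); under its other alternatives adjusted p ran from 0.0651 to 0.323. NRP2 differed by 0.29 (adjusted p = 0.198), and 1 of its 3 tested probe sets was called at 0.98 (adjusted p = 0.00888), with 4.05 and 4.51 in GFP and 4.90 and 5.62 in GFP-RhoGDI2 cells. Both GFP values of this NRP2 probe set, and of the further NRP1 probe set, lay under the filter level of 4.64. Calls through these probe sets therefore rest on the group where they are high. MST1R and GPC1, next to the neuropilins in size on that list, differed by -0.29 and 0.29 (adjusted p = 0.201 and 0.119). All 4 NRP1 and all 11 NRP2 probe sets had a positive difference; probe sets of a gene share its transcripts and are not independent.

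**Figure D3:**
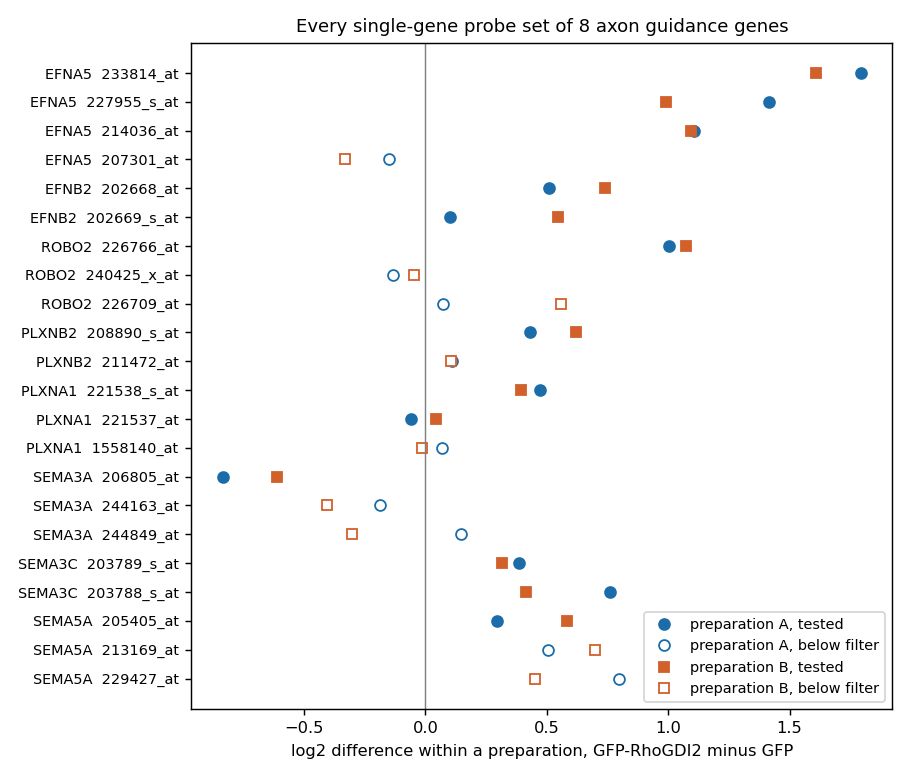
Log2 difference within preparation A (circles) and B (squares) for each of the 22 single-gene probe sets of 8 axon guidance genes; open symbols are probe sets below the filter. The 3 tested EFNA5 probe sets lie to the right in both preparations and all 3 SEMA5A probe sets are above 0, while the tested PLXNA1 probe sets differ, at 0.43 and -0.01.

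Of netrins, UNC5 receptors and DCC, 2 of 9 were tested and 0 were called by limma, with 0 at an unadjusted p under 0.05. Among all tested genes these shares were 8.17% and 27.1%, so 2 genes are too few for a reading of the family. UNC5B, a repulsive netrin receptor, read 6.80 and 6.75 in both lines, a difference of 0.00 (95% interval -0.23 to 0.23). NTN5 differed by 0.09. The ligand genes NTN1, NTN3 and NTN4 and the receptor genes DCC, UNC5A, UNC5C and UNC5D were below the filter, with means from 3.11 to 4.47. NTN4, encoding the laminin-related netrin-4, read 2.80 and 2.82 in GFP and 3.13 and 3.69 in GFP-RhoGDI2 cells.

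In all, 17 members were below the filter, with means from 3.11 to 4.47 and differences from -0.40 to 0.60. With no detection calls, such a level is not shown to be above background. When limma was run with no filter, the lowest adjusted p among the 17 was 0.101, that of NTN4. Over the 121 member probe sets, 54 were tested, 7 were called higher and 1 lower (14.8%), when 7.64% of all 27307 tested probe sets were called.

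Proteins that act inside the cell downstream of guidance receptors were taken from a list of 46 genes, of which 42 were found and 37 tested. Of these 9 rose and 0 fell (24.3%), beside 8.17% of all tested genes called and 4.83% called higher; the median difference was 0.15, and -0.01 over all tested genes. ABLIM1 and DPYSL5 had GFP means under the filter and passed it only through the group where they are high. Among genes with both group means at or above the filter, 7 of 35 effectors rose, against 4.60% of 11857 genes. With _s_at and _x_at probe sets left out, 4 of the 9 were still called, DPYSL2, DPYSL5, MICAL2 and RRAS. FYN and MICAL3 were tested there and not called (differences -0.15 and 0.14). ABLIM1, CDK5 and DPYSL4 had no other kind of probe set, so they could not be tested in that setting. ABLIM1, an actin-binding LIM protein, went from 4.15 and 4.12 to 7.84 and 8.21 (difference 3.89, adjusted p = 1.93e-04), with a GFP level that is not shown to be above background. It was known to rise when the list was drawn up, so the count is not independent of earlier results. The collapsin response mediators, which bind tubulin and relay SEMA3A signals, rose in 3 of 5 genes, DPYSL5 passing the filter as said: DPYSL2 by 1.41 (adjusted p = 0.00373), DPYSL4 by 0.88 (0.00893) and DPYSL5 by 0.85 (0.0111).

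DPYSL2 read 10.55 and 10.29 in GFP and 11.78 and 11.88 in GFP-RhoGDI2 cells. CRMP1 and DPYSL3 of the same family differed by -0.16 and -0.36 (adjusted p = 0.458 and 0.0852), with DPYSL3 lower on both GFP-RhoGDI2 arrays, so that members of this family moved unequally. Of the 2 other DPYSL4 probe sets, 1 was tested and differed by -0.02 (adjusted p = 0.929).

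The MICAL oxidoreductases disassemble actin filaments downstream of plexins. MICAL2 rose by 0.82 (adjusted p = 0.0152), from 8.94 and 8.85 to 9.62 and 9.81, and all 4 of its probe sets were called. MICAL3 rose by 0.83 (adjusted p = 0.0106), while its 2 other tested probe sets differed by 0.14 and -0.06; MICAL1 differed by 0.16. FYN, a Src-family kinase, rose by 1.15 (adjusted p = 0.00337), with 2 of 3 tested probe sets called and the other at -0.15. RRAS, a GTPase inactivated by plexins, rose by 0.81 (adjusted p = 0.0108), and CDK5, which phosphorylates collapsin response mediators, by 0.55 (adjusted p = 0.0297; 0.0723 without the block).

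SRGAP1, a GTPase-activating protein bound by ROBO1, differed by -0.41 (adjusted p = 0.0581), and the GTPase genes RAC1, RHOA and CDC42 by 0.07, 0.16 and 0.40 (adjusted p from 0.0682 to 0.679). A list of 25 co-receptors and other guidance ligands, the neuropilins among them, had 14 of 24 found genes tested and 0 called by their representatives. The share of all tested genes called was 8.17%. At an unadjusted p under 0.05 the list had 4 genes (28.6%), against 27.1% of all tested genes. The other L1CAM probe set was called at 0.61 (adjusted p = 0.0328), with a GFP mean of 4.35 under the filter. The L1CAM representative differed by -0.17. Without the GFP-RhoGDI2 B array and the block, 3 genes over the 3 partner lists were called (ABLIM1, DPYSL2 and FYN), against 9 with all arrays.

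**Figure D4:**
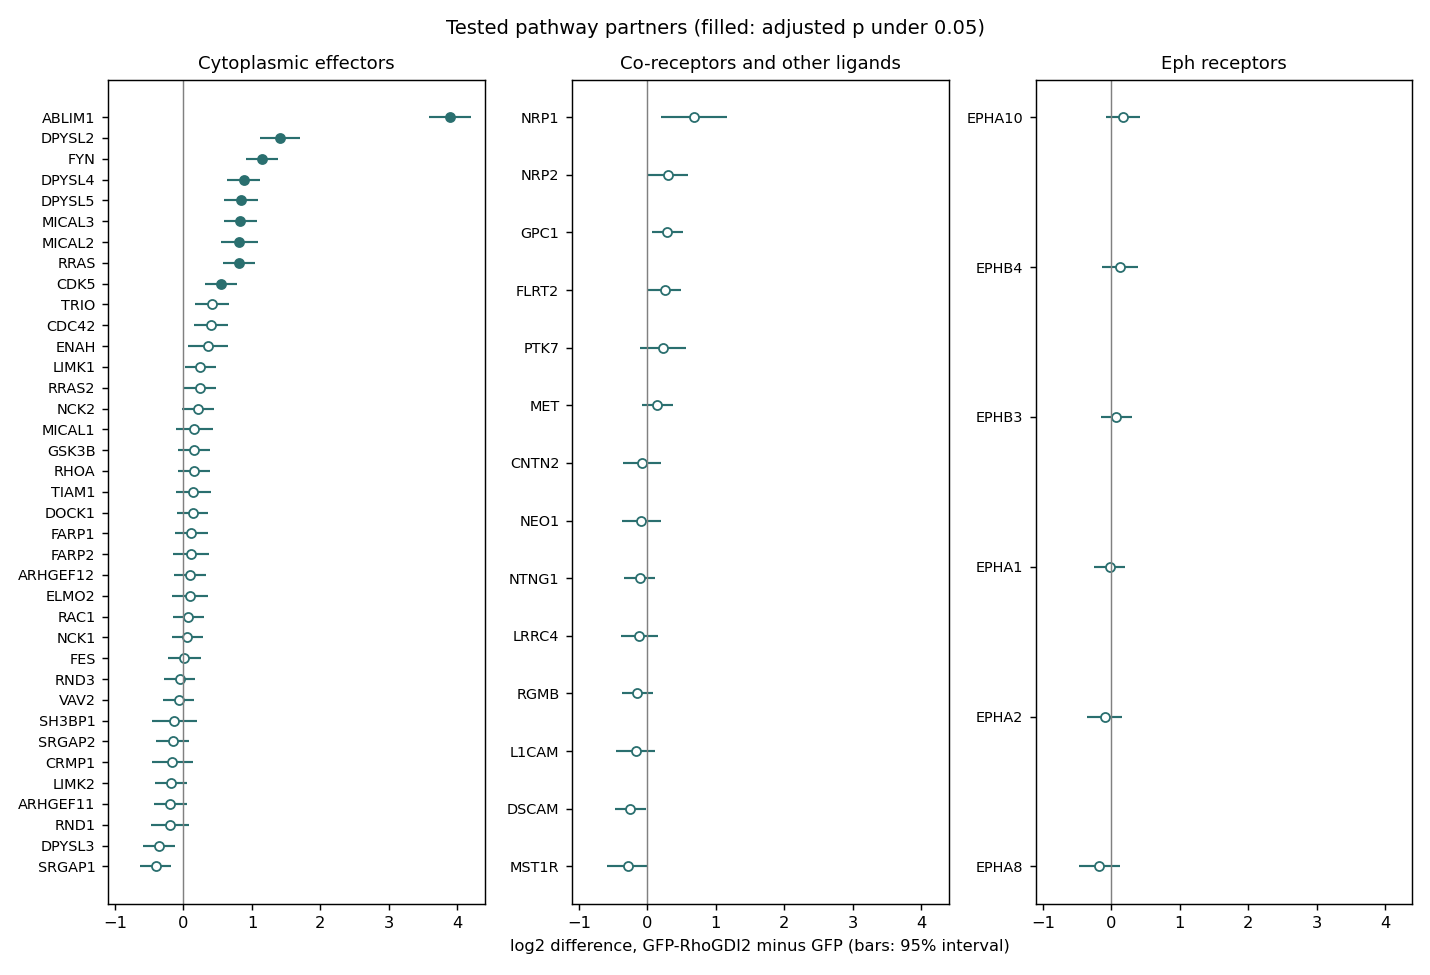
Log2 difference with its 95% interval for tested genes of the pathway, in 3 lists: 37 cytoplasmic effectors, 14 co-receptors and other ligands, and 6 Eph receptors. The 9 filled points, all among the effectors and all above 0, are the called genes, from CDK5 at 0.55 to ABLIM1 at 3.89.

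Around the 5 called members, 35 tested genes lay within 5 protein-coding genes on either side in RefSeq order. Of these 1 was called, when 8.17% of all tested genes were. It was VGLL3 near ROBO2, which was lower by 1.16 on the log2 scale (difference -1.16, adjusted p = 0.00331) and is named here after its value was seen. Median differences of the tested neighbours were 0.09 for EFNA5, -0.38 for EFNB2, 0.14 for PLXNB2, -0.10 for ROBO2 and -0.11 for SEMA3A.

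The brightest of 3 tested ARHGDIB probe sets gave 6.51 and 6.27 in GFP and 11.94 and 11.58 in GFP-RhoGDI2 cells, a difference of 5.37; the others differed by 0.94 (adjusted p = 0.00794) and -0.02 (adjusted p = 0.953). Of 9 urothelial markers 2 were above the filter, GATA3 and PPARG. PPARG, with a GFP mean of 4.54 under the filter, rose by 1.27 (adjusted p = 0.00337), and GATA3 differed by -0.20 (adjusted p = 0.428). The uroplakin genes and KRT20 were below the filter on their means. UPK1A among them read 4.18 and 4.03 in GFP and 4.95 and 4.55 in GFP-RhoGDI2 cells, a difference of 0.65. UPK1B, UPK2 and UPK3A differed by -0.03, -0.04 and -0.17. KRT20, KRT5 and FOXA1, the last 2 also below the filter, differed by -0.12, -0.17 and -0.02. The epithelial genes CDH1 and EPCAM were also below the filter, whereas KRT18 and KRT8 were above it and fell (differences -0.59 and -1.23). All 3 mesenchymal markers, CDH2, FN1 and VIM, were above the filter, and CDH2 rose by 0.68 (adjusted p = 0.0201). FN1 and VIM differed by 0.34 and 0.18 and were not called (adjusted p = 0.287 and 0.291). Of 5 neuronal markers, SNAP25 was above the filter and rose, from 4.72 and 5.66 to 5.50 and 6.54 (difference 0.83, adjusted p = 0.00977), with B above A in each line as for ROBO2 and SEMA3C; the other 4 had means under the filter. Summed over the 5, log2 levels were 19.82 to 20.55 in GFP and 20.69 to 21.54 in GFP-RhoGDI2 cells; without SNAP25 the sums were 14.90 to 15.10 and 15.00 to 15.19. The part of these marker genes in the results above was not tested. Of glial, endothelial, fibroblast and leukocyte markers none passed in the limma fit; the lowest unadjusted p was 0.047, for GFAP.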

How the data were processed

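Expression was measured on 4 Affymetrix HG-U133 Plus 2.0 arrays. The deposited values are log2 RMA expression per probe set, made by the authors per the submitters' processing notes; software, version and probe definitions were not given in the sources used here. No normalization was added. Of the probe sets, 62 controls were left out, and genes were named from probe sets whose platform annotation names 1 gene. Probe sets at or above the median mean were tested (27307) by a limma (3.58.1) fit in R (4.3.3), blocked on preparation, with moderated variances and Benjamini-Hochberg adjustment over all tested probe sets. The labels state the pairing; A minus B differences of the lines correlated at 0.264 across tested probe sets. The fit has 1 residual degree of freedom plus 4.71 estimated prior ones, so p-values rest mostly on the pooled variance. The fit was run on data simulated from its own variance model. Such a run checks the code and not whether that model holds for these arrays. All 53 members were matched to RefSeq by gene identifier, and 45 to its promoter table. With 2 arrays per group, the number of arrays limits the precision.

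Named with full values were called members, tested members with a difference of at least 0.5 in size, the highest-level member of each family, called partners and both neuropilins. Members, lists and this rule were chosen with earlier results of these data known. Beyond it, genes named singly were chosen after their values were seen. Alternatives comprised no block, fits on 3 arrays, which also had no block, and no filter or one at the upper quartile. They also comprised an intensity trend, quantile or median scaling, means over a gene's probe sets, dropping _s_at and _x_at probe sets, and thresholds of 0.01 and 0.10. Each gene's other probe sets, and a filter on both group means for the partners, were added after the data were seen.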

Additional observations from a re-analysis of the deposited data

How the results depend on the processing

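EFNA5 was called in each of the alternative fits across all genes, though not by its probe set 207301_at, which was below the filter, and the same 5 members were called after quantile normalization and after centring each array. The number of members called, 5 in the paired analysis, was 3 with no replicate block and fewer than that without 1 array, in fits that also have no block. It was 9 with an intensity trend (PLXNA1, SEMA3C, SEMA4D and SEMA5A added), 2 at a threshold of 0.01 and 10 at 0.10. Above the upper quartile 4 of 7 tested members were called, beside 1876 of 7442 tested genes. They were EFNA5, EFNB2, PLXNA1 (adjusted p = 0.00825) and SEMA3C (0.0166), while ROBO2, PLXNB2 and SEMA3A lay below that filter. Partner calls, 9 as reported, ranged from 3 to 8 without 1 array, and were 17 with an intensity trend (2 lower), 14 with probe set means (5 lower), 7 without _s_at and _x_at probe sets (1 lower, 4 shared with those reported), 4 at 0.01 and 14 at 0.10. Calls over all genes, 991 as reported, were 641 with no replicate block, 215 to 421 without 1 array, 1876 above the upper quartile, 2879 with an intensity trend, 2430 with probe set means, 243 at 0.01 and 1971 at 0.10. The members' median difference, 0.07 as reported, was 0.0167 in pair A, 0.040 in pair B, 0.0462 to 0.079 without 1 array, 0.051 with no filter, 0.352 above the upper quartile, 0.0484 with centred arrays and 8.24e-04 without _s_at and _x_at probe sets. Centring shifts every difference by the same amount, and the median of all tested genes moved with it, from -0.0134 to -0.0388. That median was -0.0168 with no filter, -0.0165 above the upper quartile and -0.0143 without _s_at and _x_at probe sets. The cause of the other changes in counts and medians was not tested, beyond the fewer arrays or probe sets that some settings use. With an intensity trend, 9 of 36 tested members were called, beside 2879 of 12123 tested genes. With probe set means it was 6 of 24, beside 2430 of 9888. Members and all genes thus had close shares in both settings, unlike 13.9% against 8.17% as reported. Under the other settings the share of members called was above that of all genes. The median of 0.352 above the upper quartile rests on only 7 tested members.

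With probe set means, 24 members were tested and 6 called, EFNA1, SEMA3C and SEMA4B among them. ROBO2 and SEMA3A were not tested in that setting, because the mean over their probe sets fell below its filter. Signs turned for PLXNA1 without _s_at and _x_at probe sets (-0.0063, also the value of its second probe set), for FYN in the same setting (-0.148) and for UNC5B, whose value is near 0 (-0.0223 after quantile normalization, -0.0246 with centred arrays and -0.0211 to 0.0227 without 1 array). They also turned for further probe sets of EFNA5 (-0.241), ROBO2 (-0.0892), SEMA4D (0.167), DPYSL4 (-0.0167) and MICAL3 (-0.0582).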
